A study of Homo sapiens with 12 samples.

Results

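The genes described here are 38 out of 60649 gene IDs in the table: the transcription factor ATF4 and its targets and partners. They include genes of amino acid supply and tRNA charging. They were chosen by name, as listed symbols matched to Ensembl IDs, with earlier results of these data known. All 38 passed the filter on low counts and are among the 17576 genes tested. They fall into 5 transcription factors, 8 feedback genes and effectors, 8 amino acid and one-carbon synthesis enzymes, 4 amino acid transporters and 13 tRNA charging genes, of which 12 are cytosolic aminoacyl-tRNA synthetases and 1 is the tRNA exporter XPOT.

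RNA was sequenced from MDA-MB-231, a long-established breast cancer cell line of the triple-negative type, in 4 groups of 3 libraries. SIRT1 KD cells carried a short hairpin RNA (shRNA) against SIRT1, an NAD-dependent deacetylase. IGF2BP2 KD cells carried an shRNA against IGF2BP2, a reader of m6A on messenger RNA, and double KD cells carried both. Control cells carried a sham-targeting shRNA, and all 4 groups were infected with lentivirus made in HEK-293T cells, with Polybrene at 8 µg/mL, and kept in RPMI-1640 with 10% fetal bovine serum and puromycin at 2.0 µg/mL. The sources used here do not say whether a line is a clone or a population, how many hairpins were used against each gene, or whether replicates are separate infections. The p-values therefore measure only the spread between these libraries, which may be technical.

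When amino acids run short, uncharged tRNA activates the kinase GCN2, which phosphorylates the initiation factor eIF2, and other kinases do the same under endoplasmic reticulum stress, heme shortage or viral RNA. Phosphorylated eIF2 slows most translation while the ATF4 message is translated more, a program known as the integrated stress response. ATF4 protein pairs with C/EBP family proteins on a composite DNA element and turns on genes that make, import and charge amino acids, together with genes that shut the response down.

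Values below are read counts divided by the authors' size factor for each library ("normalised counts"). Log2 fold changes, their standard errors and Benjamini-Hochberg adjusted p-values come from limma on log2(normalised count + 1), fitted over all tested genes, and a gene was called at an adjusted p under 0.05. Assigned reads ranged from 19522606 to 22509142 in 11 libraries and were 15243152 in double KD replicate 2, which also had a mitochondrial share of 1.18% against 1.99% to 2.57% elsewhere and the largest spread to its partners. SIRT1 averaged 63.2% of control in SIRT1 KD and 48.4% in double KD, and IGF2BP2 averaged 24.8% in IGF2BP2 KD and 28.1% in double KD. The IGF2BP2 message itself rose in SIRT1 KD, by 0.29 on the log2 scale (122% of control, adjusted p = 0.0274), while SIRT1 stood at 87.3% in IGF2BP2 KD (adjusted p = 0.102, or 0.0245 without double KD replicate 2). Double KD minus SIRT1 KD was -0.38 (adjusted p = 0.00157) for SIRT1. The part of these target levels in the comparisons between knockdowns and in the interaction was not tested. The mesenchymal markers VIM, CD44, AXL and FN1 had between 399 and 2831 CPM (reads scaled to a common library total) in every library, ESR1 and PGR had at most 8 reads and CDH1 at most 24, and none of 5 neural and renal genes listed for HEK-293T exceeded 3 reads. ERBB2, at 105 to 122 CPM, and EPCAM, at 7.09 CPM or more, had been listed as low in this line and were detected in every library. The comparisons with control share the same 3 control libraries.

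Promoters of 32 of the 38 genes are in the RefSeq promoter table for GRCh38.p14, which covers 250 bases before to 50 after each start. They were searched on both strands for TGATGNAA, the core of the C/EBP-ATF response element through which ATF4 is known to act. At least 1 listed promoter held it in 14 of the 32 genes (43.8%), against 323 of 11734 tested genes with an entry (2.75%) and 1270 of 35116 promoters in the table (3.62%). The windows of 8 of these genes are shown, 2 or more from tRNA charging and 1 or more from each other role. The 8 bases of the match are in capitals and the gene strand is printed 5′ to 3′. Only matching windows were kept, so the likeness of the capitals was set by the search.
CEBPG, chr19:33374061-33374088, plus strand: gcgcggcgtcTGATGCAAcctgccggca
CHAC1, chr15:40953252-40953279, plus strand: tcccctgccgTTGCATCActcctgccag
ASNS, chr7:97872459-97872486, minus strand: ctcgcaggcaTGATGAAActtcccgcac
SLC1A5, chr19:46784894-46784921, minus strand: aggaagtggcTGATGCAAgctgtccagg
AARS1, chr16:70289676-70289703, minus strand: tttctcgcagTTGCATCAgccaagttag
MARS1, chr12:57488054-57488081, plus strand: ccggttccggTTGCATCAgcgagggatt
TARS1, chr5:33440957-33440984, plus strand: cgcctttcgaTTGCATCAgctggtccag
IARS1, chr9:92293693-92293720, minus strand: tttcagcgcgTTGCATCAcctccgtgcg
In CEBPG, ASNS and SLC1A5 the element lies in the direction of the gene, and in CHAC1, AARS1, MARS1, TARS1 and IARS1 it is read on the opposite strand. By role, 7 of 11 tRNA charging genes, 3 of 4 transporters, 2 of 5 transcription factors (ATF3 and CEBPG), 1 of 7 feedback genes and effectors (CHAC1) and 1 of 5 synthesis enzymes (ASNS) held it. None of 9 other cytosolic synthetase and synthetase complex genes did, and 1 of 14 mitochondrial synthetases did. The motif was chosen after the expression values had been seen and was the only motif searched. When the search took only the first listed promoter of each gene, which was how it was first run, 11 of the 32 genes (34.4%) and 203 of 11734 tested genes (1.73%) held it; every listed promoter was then used because the table lists several starts for many genes. Some of these genes are known as ATF4 targets through this element, so the share describes the list and a match is not a measured binding site.

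**Figure D1:**
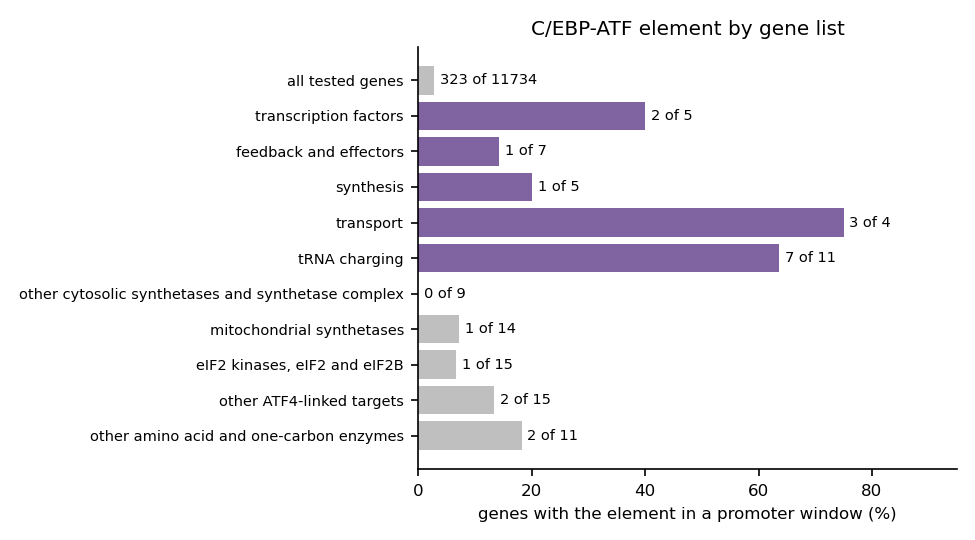
Share of genes (%, horizontal bars starting at 0) with TGATGNAA on either strand in a RefSeq promoter window, by gene list, with the count beside each bar. The 5 lists described here are purple and the other lists and all tested genes are grey; transport (3 of 4) and tRNA charging (7 of 11) have the longest bars.

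In each knockdown taken alone, most of the 38 genes were called lower than in control, though not always the same genes. In SIRT1 KD, 22 fell and 3 rose, against 15.7% lower and 12.9% higher of all tested genes. In IGF2BP2 KD, 27 fell and 1 rose, against 9.39% lower and 6.86% higher of all tested genes. In double KD, 31 fell and 1 rose, against 17.5% lower and 16.7% higher of all tested genes. RNA was pooled over all cells of a culture, so fewer cells with a transcript and less of it per cell cannot be told apart. The median limma log2 fold change over the 38 genes was -0.24 in SIRT1 KD, -0.38 in IGF2BP2 KD and -0.41 in double KD, and over all tested genes -0.0018, -0.0037 and 0.0057.

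Leaving out double KD replicate 2 changes the pooled estimate of spread for every comparison. Without it, 24 fell and 3 rose in SIRT1 KD (20.4% lower and 18.4% higher of all tested genes), 32 fell and 1 rose in IGF2BP2 KD (15.2% and 12.6%), and 35 fell and 1 rose in double KD (20.0% and 19.1%).

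The commonest pattern was a fall in every knockdown, read here with the reserve that all 3 comparisons use the same control libraries, so their calls are not independent. In all 3, the genes called lower than control were ATF4, CEBPG, CHAC1, ASNS, PSAT1, SHMT2, XPOT, AARS1, GARS1, SARS1, MARS1, CARS1, YARS1 and IARS1, 14 of 38 (36.8%), against 2.08% of all tested genes. Another 10 (26.3%, against 3.1% of all tested genes) were called lower in IGF2BP2 KD and double KD and not in SIRT1 KD (ATF3, DDIT3, CEBPB, TRIB3, MTHFD2, SLC1A5, WARS1, NARS1, TARS1 and LARS1). A further 6 (15.8%, against 7.39%) were called lower in SIRT1 KD and double KD and not in IGF2BP2 KD (DDIT4, STC2, PHGDH, ALDH18A1, SLC7A5 and EPRS1). With all libraries, VLDLR and PSPH were called lower in SIRT1 KD and in no other knockdown, PYCR1, SLC7A1 and PPP1R15A in IGF2BP2 KD, and SLC3A2 in double KD. SESN2 and EIF4EBP1 were called lower in none. LARS1, PPP1R15A, SESN2 and SLC7A5 were each called higher in at least 1 knockdown.

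These patterns depend on double KD replicate 2. Without it, 11 more calls against control were made for the 38 genes and none was lost. All 11 were falls: SLC1A5 and WARS1 in SIRT1 KD, EIF4EBP1, VLDLR, ALDH18A1, SLC3A2 and EPRS1 in IGF2BP2 KD, and EIF4EBP1, VLDLR, PSPH and PYCR1 in double KD. The number called lower in all 3 knockdowns was then 19 of 38, against 3.74% of all tested genes, and SESN2 was the 1 gene of the list lower in none.

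**Figure D2:**
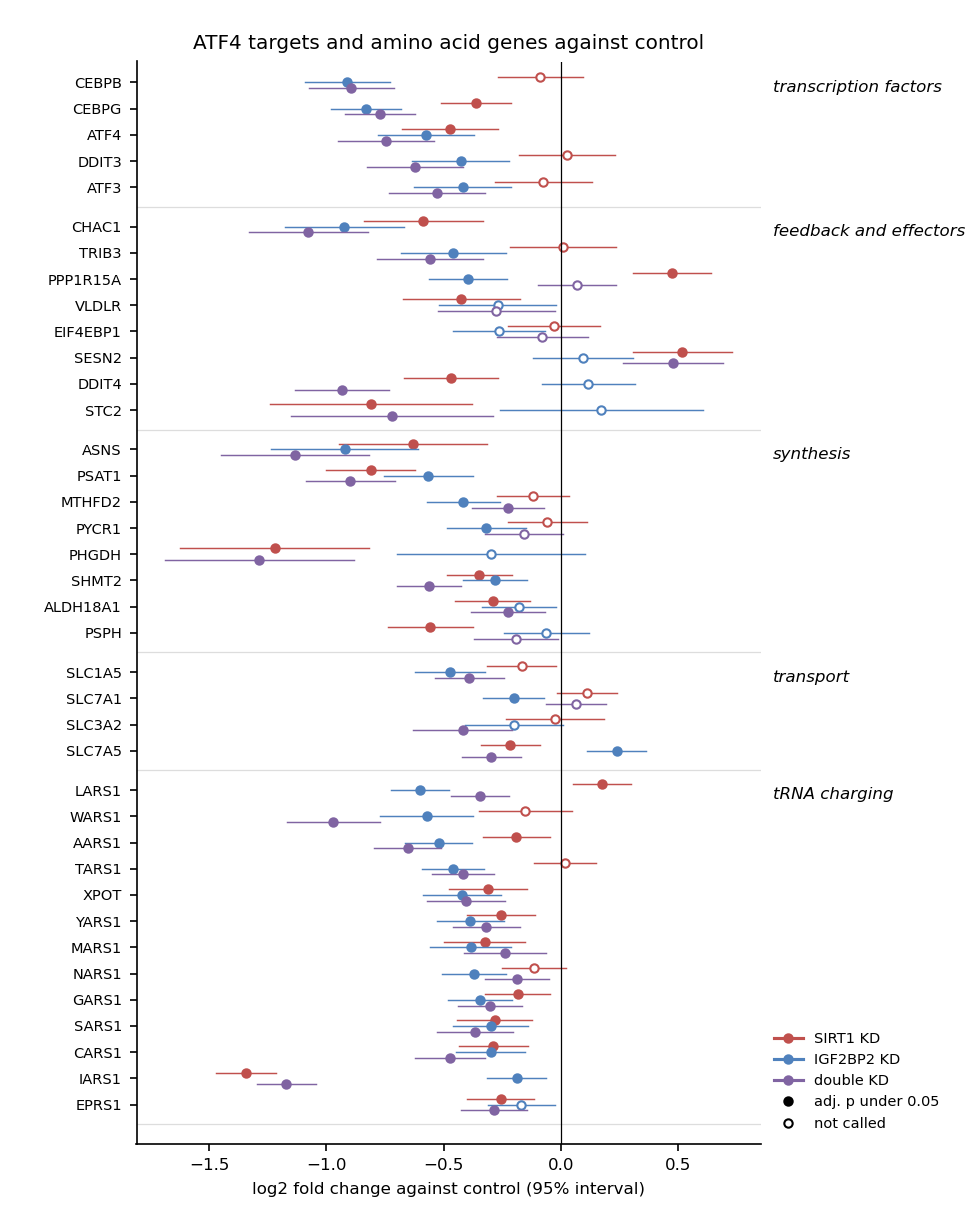
Log2 fold change against control (horizontal axis) with its 95% interval for each of the 38 genes, by role, in SIRT1 KD (red), IGF2BP2 KD (blue) and double KD (purple), 3 libraries a group. Filled points have an adjusted p under 0.05; most lie left of 0, and PPP1R15A, SESN2, SLC7A5 and LARS1 have filled points to the right.

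Among the transcription factors, all 5 fell in IGF2BP2 KD and in double KD, while ATF4 and CEBPG alone were called in SIRT1 KD. Of all tested genes, 9.39% fell in IGF2BP2 KD, 17.5% in double KD and 15.7% in SIRT1 KD. ATF4, the factor that the pathway turns on, had 3281, 3024 and 3047 normalised counts in SIRT1 KD libraries, 2757, 3126 and 2834 in IGF2BP2 KD, 2246, 3179 and 2400.1 in double KD and 4409, 4261 and 4298 in control. All 9 knockdown libraries were below the 3 controls, and the knockdown groups overlapped one another. The log2 fold change was -0.47 (adjusted p = 0.00116) in SIRT1 KD, -0.57 (adjusted p = 0.000424) in IGF2BP2 KD and -0.75 (adjusted p = 9.78e-06) in double KD, where it was -0.90 without replicate 2. Double KD differed from SIRT1 KD by -0.27 (adjusted p = 0.0509) with all libraries and by -0.42 (adjusted p = 3.24e-07) without double KD replicate 2, the highest double KD library for this gene.

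CEBPG is a C/EBP family partner of ATF4. CEBPG had 1155, 1157 and 1057 normalised counts in SIRT1 KD libraries, 786, 822 and 823 in IGF2BP2 KD, 795, 825 and 919 in double KD and 1419, 1462 and 1452 in control. The IGF2BP2 KD and double KD libraries overlapped and were lowest, the SIRT1 KD libraries lay between them and control, and no knockdown library reached control. The fold changes on the log2 scale were -0.36 (adjusted p = 0.000719) in SIRT1 KD, -0.83 (adjusted p = 2.47e-07) in IGF2BP2 KD and -0.77 (adjusted p = 1.31e-07) in double KD.

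CEBPB and DDIT3 (the gene for CHOP) form dimers with ATF4 or with each other. CEBPB had 2816, 2474 and 2598 normalised counts in SIRT1 KD libraries, 1346, 1681 and 1445 in IGF2BP2 KD, 1353, 1655 and 1512 in double KD and 2847, 2706 and 2823 in control. DDIT3 had 530.2, 477 and 417 normalised counts in SIRT1 KD libraries, 344, 366 and 325 in IGF2BP2 KD, 284, 327 and 295 in double KD and 486, 432 and 474 in control. For both genes SIRT1 KD overlapped control, and IGF2BP2 KD and double KD lay below it and overlapped each other. CEBPB differed from control by -0.09 (adjusted p = 0.495) in SIRT1 KD, -0.91 (adjusted p = 8.29e-07) in IGF2BP2 KD and -0.89 (adjusted p = 2.42e-07) in double KD on the log2 scale. DDIT3 differed by 0.03 (adjusted p = 0.874), -0.43 (adjusted p = 0.00507) and -0.62 (adjusted p = 7.07e-05) in the same order. Set against IGF2BP2 KD directly, SIRT1 KD was higher by 0.82 (adjusted p = 5.16e-07) for CEBPB and by 0.45 (adjusted p = 0.00111) for DDIT3. ATF3, a related factor induced by stress, had changes of -0.08, -0.42 and -0.53, the last 2 called. DDIT3 shares 982 annotated bases with MARS1 on the opposite strand and CEBPB overlaps an antisense gene; the sources used here do not state whether counting used strand, so reads of such pairs cannot be told apart.

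The feedback genes and effectors moved in both directions. Of 8, 4 fell and 2 rose in SIRT1 KD, 3 fell in IGF2BP2 KD, and 4 fell and 1 rose in double KD. Of all tested genes, 15.7%, 9.39% and 17.5% fell and 12.9%, 6.86% and 16.7% rose in the same order. The 1 rise in double KD (12.5%) was below that share. CHAC1, an enzyme that degrades glutathione, had 215, 209 and 185 normalised counts in SIRT1 KD libraries, 145, 168 and 169.7 in IGF2BP2 KD, 126, 139 and 172 in double KD and 299, 292 and 326 in control. All 9 knockdown libraries lay below control, with double KD and IGF2BP2 KD overlapping. Its log2 fold change was -0.59 (adjusted p = 0.00112) in SIRT1 KD, -0.92 (adjusted p = 3.34e-05) in IGF2BP2 KD and -1.08 (adjusted p = 1.45e-06) in double KD, or -1.05 without replicate 2.

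PPP1R15A, known as GADD34, brings a phosphatase to eIF2 and so ends the response. PPP1R15A had 4572, 4251 and 4210.0 normalised counts in SIRT1 KD libraries, 2292, 2576 and 2269.9 in IGF2BP2 KD, 2890.2, 3700.1 and 3288 in double KD and 3115, 3143 and 3121 in control. SIRT1 KD lay above control, IGF2BP2 KD lay below it, and double KD spanned it. The log2 fold change was 0.47 (adjusted p = 0.000182) in SIRT1 KD, -0.40 (adjusted p = 0.00192) in IGF2BP2 KD and 0.07 (adjusted p = 0.561) in double KD, and SIRT1 KD minus IGF2BP2 KD was 0.87 (adjusted p = 1e-07). TRIB3, a pseudokinase that restrains ATF4, overlapped control in SIRT1 KD and lay below it in the other knockdowns. TRIB3 had 2466, 2302 and 2189 normalised counts in SIRT1 KD libraries, 1554, 1834 and 1645 in IGF2BP2 KD, 1307, 1931 and 1505 in double KD and 2397, 2270.3 and 2235 in control. Its changes were 0.01 (adjusted p = 0.959), -0.46 (adjusted p = 0.0064) and -0.56 (adjusted p = 0.00055) in SIRT1 KD, IGF2BP2 KD and double KD.

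DDIT4 and SESN2 both restrain the growth kinase mTORC1. DDIT4 had 6618, 5792 and 6690.4 normalised counts in SIRT1 KD libraries, 9032, 10009 and 9587 in IGF2BP2 KD, 4006, 5586 and 4359 in double KD and 8788, 8766 and 8823 in control. Double KD was lowest, SIRT1 KD was between double KD and control, and all IGF2BP2 KD libraries lay above control. DDIT4 changed by -0.47 (adjusted p = 0.00101) in SIRT1 KD, 0.12 (adjusted p = 0.46) in IGF2BP2 KD and -0.93 (adjusted p = 5.44e-07) in double KD on the log2 scale. SESN2 had 765, 707 and 729.6 normalised counts in SIRT1 KD libraries, 561, 544 and 533 in IGF2BP2 KD, 599.9, 818 and 739 in double KD and 492, 574 and 474 in control. SESN2 rose by 0.52 (adjusted p = 0.00071) in SIRT1 KD and by 0.48 (adjusted p = 0.00116) in double KD; in IGF2BP2 KD, which overlapped control, the difference was 0.09 (adjusted p = 0.602). STC2, a secreted glycoprotein at only 38.4 normalised counts in control, fell by 0.81 in SIRT1 KD and by 0.72 in double KD on the log2 scale, and the double KD call was lost without control replicate 1 (adjusted p = 0.0567). VLDLR, a lipoprotein receptor, fell in SIRT1 KD (-0.43, adjusted p = 0.0111), a call lost without SIRT1 KD replicate 2 (adjusted p = 0.0571). In IGF2BP2 KD and double KD, VLDLR differed by -0.27 (adjusted p = 0.14) and -0.28 (adjusted p = 0.0831), and without double KD replicate 2 both were called, with -0.27 (adjusted p = 0.00508) and -0.46 (adjusted p = 1.31e-05). EIF4EBP1, which blocks the cap-binding factor eIF4E, had changes of -0.03, -0.26 and -0.08, none called with all libraries. Without double KD replicate 2, EIF4EBP1 was called in IGF2BP2 KD (-0.26, adjusted p = 0.000865) and in double KD (-0.20, adjusted p = 0.0183).

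Genes of amino acid synthesis fell in each knockdown and none rose: 6 of 8 fell in SIRT1 KD, 5 in IGF2BP2 KD and 6 in double KD. The shares of all tested genes that fell were 15.7%, 9.39% and 17.5%, and 12.9%, 6.86% and 16.7% rose. PHGDH, PSAT1 and PSPH are the successive enzymes of serine synthesis, and MDA-MB-231 is known for little PHGDH. PSAT1 had 1955, 1798 and 1858 normalised counts in SIRT1 KD libraries, 2401, 1994 and 2271 in IGF2BP2 KD, 1761, 1537 and 2014 in double KD and 3189, 3150.1 and 3515 in control. No knockdown library reached the controls, and SIRT1 KD lay below IGF2BP2 KD without overlap. PSAT1 changed by -0.81 (adjusted p = 2e-06) in SIRT1 KD, -0.57 (adjusted p = 0.000247) in IGF2BP2 KD and -0.90 (adjusted p = 4.24e-07) in double KD, or -0.80 without double KD replicate 2. PHGDH had 37.7, 31.6 and 28.4 normalised counts in SIRT1 KD libraries, 75.8, 54.2 and 58.5 in IGF2BP2 KD, 24, 37.1 and 33 in double KD and 75.6, 79.4 and 75.2 in control. SIRT1 KD and double KD lay below control, and IGF2BP2 KD overlapped it. PHGDH changed by -1.22 (adjusted p = 9e-05), -0.30 (adjusted p = 0.331) and -1.29 (adjusted p = 3.87e-05) in SIRT1 KD, IGF2BP2 KD and double KD. PSPH was called in SIRT1 KD alone with all libraries (-0.56, adjusted p = 7.47e-05), and also in double KD once replicate 2 was left out (-0.30, adjusted p = 0.00049).

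ASNS makes asparagine from aspartate and is a standard readout of ATF4. ASNS had 110.2, 103 and 76.9 normalised counts in SIRT1 KD libraries, 75.8, 90.4 and 69 in IGF2BP2 KD, 67.6, 63.1 and 71.1 in double KD and 152, 153 and 141 in control. Control lay above all knockdown libraries, and double KD and IGF2BP2 KD overlapped. ASNS changed by -0.63 (adjusted p = 0.00352) in SIRT1 KD, -0.92 (adjusted p = 0.000279) in IGF2BP2 KD and -1.13 (adjusted p = 1.03e-05) in double KD. Its exons lie within a longer annotated gene on the same strand, ENSG00000284707, which may take part of its reads, so the ASNS level is uncertain. SHMT2 and MTHFD2 are mitochondrial enzymes of one-carbon metabolism. SHMT2 had 3171, 2918 and 3043 normalised counts in SIRT1 KD libraries, 3073, 3164 and 3316 in IGF2BP2 KD, 2421, 2669 and 2789.6 in double KD and 3916, 3779 and 3921 in control. Double KD lay below both single knockdowns and all of them lay below control. SHMT2 changed by -0.35 (adjusted p = 0.000513), -0.28 (adjusted p = 0.0055) and -0.56 (adjusted p = 2.27e-06). MTHFD2 fell in IGF2BP2 KD (-0.42, adjusted p = 0.000601) and in double KD (-0.23, adjusted p = 0.0231), and its double KD call did not hold once control replicate 1 or 3 was left out (adjusted p up to 0.0987). Of the proline synthesis enzymes, ALDH18A1 fell in SIRT1 KD (-0.29) and double KD (-0.23) and PYCR1 in IGF2BP2 KD (-0.32). The ALDH18A1 double KD call was lost without any of 5 libraries (the 3 controls and double KD replicates 1 and 3, adjusted p up to 0.123), and the PYCR1 call without IGF2BP2 KD replicate 1 (adjusted p = 0.0508). In double KD, PYCR1 differed by -0.16 (adjusted p = 0.142), and was called without double KD replicate 2 (-0.24, adjusted p = 0.00176).

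The 4 transporters did not move as a block. SLC7A5 and SLC3A2 form the exchanger that imports leucine and other large neutral amino acids. SLC7A5 had 12977, 12146 and 12691 normalised counts in SIRT1 KD libraries, 17525, 17495 and 16720.4 in IGF2BP2 KD, 11303, 12766 and 11703 in double KD and 14431, 15086 and 14378 in control. IGF2BP2 KD lay above control, and SIRT1 KD and double KD lay below it and overlapped each other. The log2 fold change was -0.22 (adjusted p = 0.011) in SIRT1 KD, 0.24 (adjusted p = 0.0104) in IGF2BP2 KD and -0.30 (adjusted p = 0.000784) in double KD. The SIRT1 KD call was lost without control replicate 2 or SIRT1 KD replicate 2 (adjusted p up to 0.0596), and the IGF2BP2 KD call without control replicate 1 or 3 (adjusted p up to 0.0553). SIRT1 KD minus IGF2BP2 KD was -0.45 (adjusted p = 8.43e-06).

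SLC3A2 had 7059, 5806 and 6117 normalised counts in SIRT1 KD libraries, 5636, 5697 and 5426 in IGF2BP2 KD, 4170.2, 5903 and 4488 in double KD and 6413, 6480.3 and 6363 in control. SLC3A2 was called lower in double KD (-0.42, adjusted p = 0.00333, or -0.57 without replicate 2) and differed by -0.03 in SIRT1 KD and -0.20 in IGF2BP2 KD. SLC1A5, the glutamine transporter ASCT2, had 5783, 4982 and 5335 normalised counts in SIRT1 KD libraries, 4312, 4385 and 4315 in IGF2BP2 KD, 4176, 4916 and 4714 in double KD and 5964, 5838 and 6258 in control. All knockdown libraries lay below control, with the smallest gap in SIRT1 KD. SLC1A5 changed by -0.17 (adjusted p = 0.0853) in SIRT1 KD, -0.47 (adjusted p = 0.000129) in IGF2BP2 KD and -0.39 (adjusted p = 0.000275) in double KD. SLC7A1, which carries arginine and lysine, had 8809.6, 8052 and 8664 normalised counts in SIRT1 KD libraries, 7125, 6575 and 6850.0 in IGF2BP2 KD, 8035, 7920.4 and 8759 in double KD and 7691, 7947 and 7984 in control. SLC7A1 fell in IGF2BP2 KD (-0.20, adjusted p = 0.0318), a call lost without any of 6 libraries (the 3 controls, SIRT1 KD replicate 3 and IGF2BP2 KD replicates 2 and 3, adjusted p up to 0.117), and was not called in SIRT1 KD (0.11) or double KD (0.06).

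**Figure D3:**
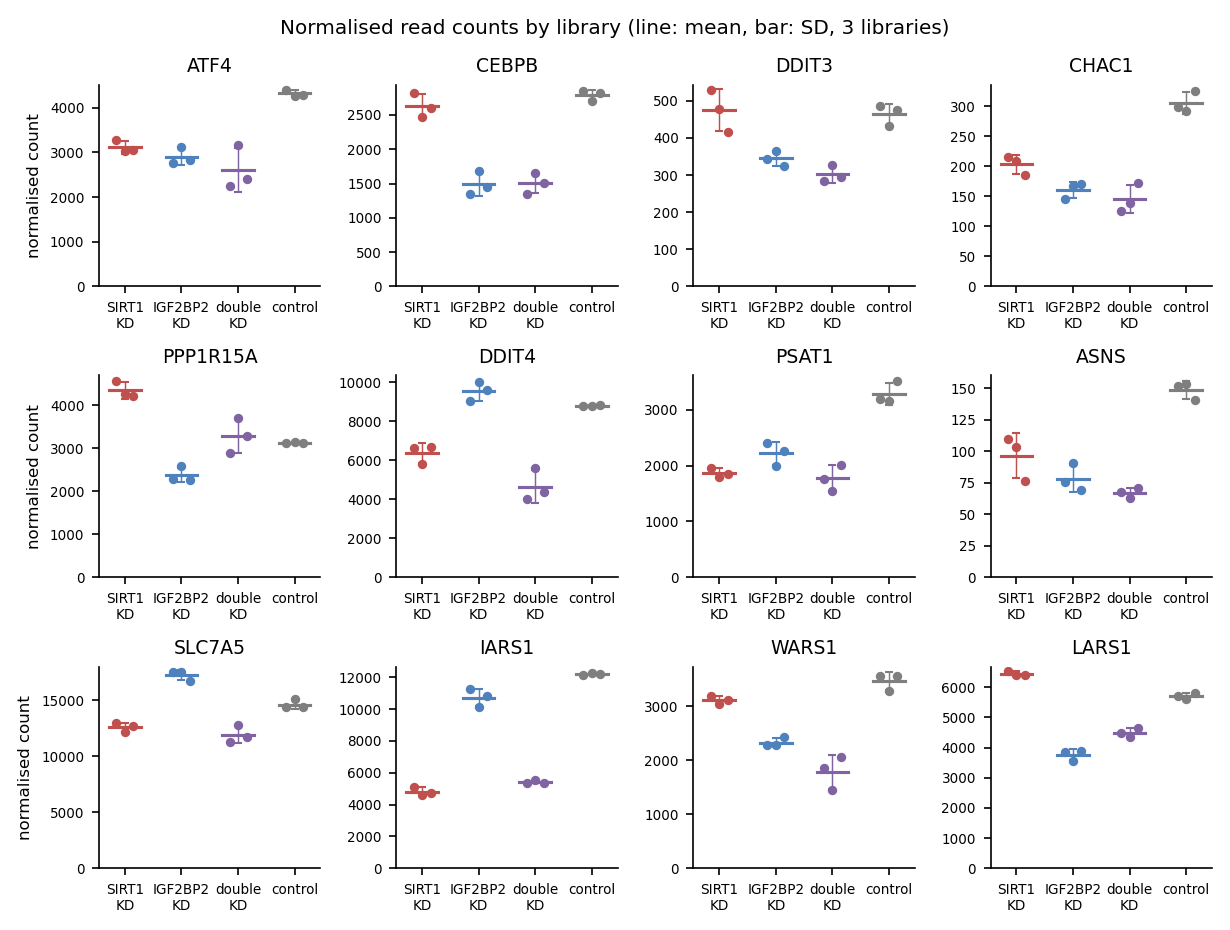
Normalised read counts (vertical axes from 0) of 12 genes in each library of SIRT1 KD, IGF2BP2 KD, double KD and control; points are libraries, lines means and bars SD (n = 3). ATF4, CHAC1, PSAT1 and ASNS are below control in every knockdown, CEBPB and DDIT3 only where the IGF2BP2 hairpin is present, and PPP1R15A, SLC7A5 and LARS1 lie above control in 1 knockdown and below it in another.

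The tRNA charging genes nearly all fell. Of 13, 12 fell in IGF2BP2 KD and 13 in double KD, and in SIRT1 KD 9 fell and 1 rose; XPOT fell in all 3. The medians were -0.26 in SIRT1 KD, -0.39 in IGF2BP2 KD and -0.37 in double KD. Of all tested genes, 15.7%, 9.39% and 17.5% fell and 12.9%, 6.86% and 16.7% rose in that order. Most changes were small: in IGF2BP2 KD the 13 log2 fold changes ran from -0.60 (LARS1) to -0.17 (EPRS1).

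IARS1, which charges isoleucine tRNA, stood apart in SIRT1 KD. IARS1 had 5115, 4599 and 4749 normalised counts in SIRT1 KD libraries, 11236, 10152 and 10795 in IGF2BP2 KD, 5368, 5534 and 5372 in double KD and 12141, 12293 and 12214 in control. The groups were separate, with SIRT1 KD lowest, then double KD, then IGF2BP2 KD, then control. IARS1 changed by -1.34 (adjusted p = 8.05e-11) in SIRT1 KD, -0.19 (adjusted p = 0.0387) in IGF2BP2 KD and -1.17 (adjusted p = 8.54e-11) in double KD. The IGF2BP2 KD call was lost without any of 6 libraries (the 3 controls, SIRT1 KD replicate 3 and IGF2BP2 KD replicates 2 and 3, adjusted p up to 0.141). SIRT1 KD minus IGF2BP2 KD was -1.15 (adjusted p = 1.27e-10).

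LARS1 charges leucine tRNA and also senses leucine for mTORC1. LARS1 had 6539, 6390.2 and 6418 normalised counts in SIRT1 KD libraries, 3854, 3553 and 3893 in IGF2BP2 KD, 4495, 4339.7 and 4663 in double KD and 5717, 5620.2 and 5801 in control. SIRT1 KD lay above control and IGF2BP2 KD and double KD lay below it, with no overlap between groups. LARS1 changed by 0.17 (adjusted p = 0.0311) in SIRT1 KD, -0.60 (adjusted p = 1.14e-06) in IGF2BP2 KD and -0.34 (adjusted p = 0.000149) in double KD. The rise in SIRT1 KD was lost without any of the 3 control or 3 SIRT1 KD libraries (adjusted p up to 0.109).

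WARS1 and AARS1 charge tryptophan and alanine tRNA. WARS1 had 3201, 3046 and 3109 normalised counts in SIRT1 KD libraries, 2281, 2280.4 and 2426 in IGF2BP2 KD, 1858, 1444 and 2059 in double KD and 3555, 3278 and 3565 in control. AARS1 had 3893, 3542 and 3573 normalised counts in SIRT1 KD libraries, 2865, 2935 and 2939 in IGF2BP2 KD, 2423, 2896 and 2683 in double KD and 4225, 4120.4 and 4204 in control. For both genes all knockdown libraries lay below control, and SIRT1 KD lay above the other knockdowns. WARS1 changed by -0.15 (adjusted p = 0.258) in SIRT1 KD, -0.57 (adjusted p = 0.000334) in IGF2BP2 KD and -0.97 (adjusted p = 2.99e-07) in double KD, or -0.82 without replicate 2. AARS1 changed by -0.19 (adjusted p = 0.0431), -0.52 (adjusted p = 3.13e-05) and -0.65 (adjusted p = 6.17e-07) in the same order, and its SIRT1 KD call was lost without any of 7 libraries (the 3 controls, SIRT1 KD replicates 2 and 3 and IGF2BP2 KD replicates 1 and 3, adjusted p up to 0.15). The GARS1 call in SIRT1 KD (-0.19) was lost without any of 8 libraries (the same 7 and SIRT1 KD replicate 1, adjusted p up to 0.119). In double KD, the calls of MARS1 (-0.24) and NARS1 (-0.19) were lost without any control library or double KD replicate 1, and MARS1 also without double KD replicate 3 (adjusted p up to 0.148). The SARS1 call in IGF2BP2 KD (-0.30) was lost without control replicate 1 (adjusted p = 0.0501).

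Synthetase genes outside the list gave other counts. Of the 12 listed synthetases, 8 fell and 1 rose in SIRT1 KD, 11 fell in IGF2BP2 KD and 12 fell in double KD, with medians of -0.22, -0.38 and -0.36. Of 11 other cytosolic synthetase and synthetase complex genes, 1 fell and 4 rose in SIRT1 KD, 3 fell in IGF2BP2 KD, and 1 fell and 5 rose in double KD, with medians of 0.10, -0.05 and 0.14. Of 17 mitochondrial synthetases, 1 fell and 6 rose in SIRT1 KD, 4 fell and 1 rose in IGF2BP2 KD, and 4 fell and 7 rose in double KD, with medians of 0.16, -0.11 and 0.12. Over all tested genes, 15.7%, 9.39% and 17.5% fell and 12.9%, 6.86% and 16.7% rose in SIRT1 KD, IGF2BP2 KD and double KD. Of the mitochondrial synthetases, the 5.88% that rose in IGF2BP2 KD were near that background, and 23.5% fell in double KD. The difference between these lists was not tested.

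Some of these genes lay above control. HARS1, the cytosolic histidine enzyme, had 1836, 1804 and 1826 normalised counts in SIRT1 KD libraries, 1705, 1695 and 1701 in IGF2BP2 KD, 2030.4, 2569 and 2111 in double KD and 1468, 1518 and 1466 in control. Every knockdown library lay above control, and HARS1 rose by 0.30 (adjusted p = 0.00596) in SIRT1 KD and 0.58 (adjusted p = 7.94e-06) in double KD, with 0.20 (adjusted p = 0.0865) in IGF2BP2 KD. KARS1, which charges lysine tRNA, changed by 0.42, 0.17 and 0.46, and the synthetase complex scaffold AIMP2 by 0.42, -0.27 and 0.35, all called but KARS1 in IGF2BP2 KD. QARS1, for glutamine, rose in SIRT1 KD (0.30). MARS2, for mitochondrial methionine, changed by 0.56 in SIRT1 KD, -0.56 in IGF2BP2 KD and 0.60 in double KD, all called.

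**Figure D4:**
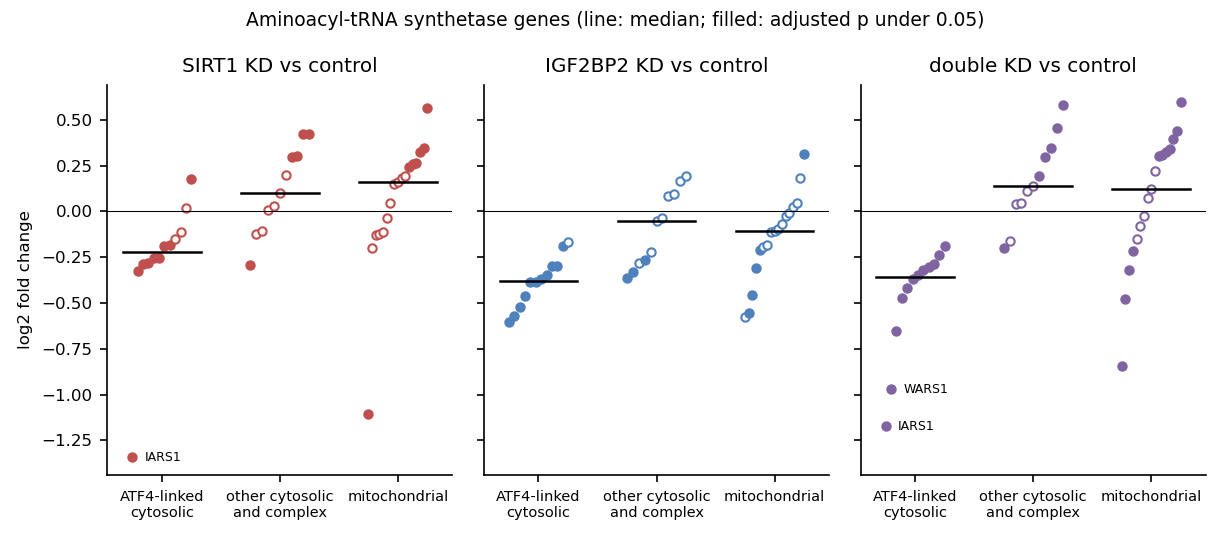
Log2 fold change against control (vertical axis) of 12 listed cytosolic synthetases, 11 other cytosolic synthetase and complex genes and 17 mitochondrial synthetases in SIRT1 KD, IGF2BP2 KD and double KD. Points are genes, filled where the adjusted p is under 0.05, and lines are medians; the listed genes have medians of -0.22, -0.38 and -0.36, and IARS1 lies far below the other listed genes in SIRT1 KD.

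The double KD was then set against each single knockdown. Against SIRT1 KD, 16 of the 38 genes fell and 2 rose (10.7% lower and 11.9% higher of all tested genes), and without double KD replicate 2, 20 fell and 2 rose (13.5% and 14.8%). Against IGF2BP2 KD, 8 fell (21.1%) and 5 rose (13.2%), against 15.2% and 16.4% of all tested genes, so neither share was far from the background. Without that library 16 fell (42.1%) and 6 rose (15.8%), against 17.2% and 18.4%. The falls against SIRT1 KD included CEBPB (-0.81, adjusted p = 2.46e-06), WARS1 (-0.82, adjusted p = 6.33e-06), DDIT3 (-0.65, adjusted p = 0.0001) and LARS1 (-0.52, adjusted p = 4.23e-06). Those against IGF2BP2 KD included DDIT4 (-1.05, adjusted p = 2.33e-07), IARS1 (-0.98, adjusted p = 2.22e-09), PHGDH (-0.99, adjusted p = 0.000627) and SLC7A5 (-0.53, adjusted p = 2.5e-06).

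SIRT1 KD minus IGF2BP2 KD was called higher for 17 genes (44.7%) and lower for 7 (18.4%), against 19.3% higher and 19.3% lower of all tested genes. Its fold changes use no control library, but its calls do, through the filter and the pooled estimate of spread. Without double KD replicate 2 the numbers were 21 (55.3%) and 7 (18.4%), against 24.0% and 23.5%. The share lower was thus near the background with all libraries and below it without that replicate. Of the transcription factors 4 of 5 were higher in SIRT1 KD, and 5 of 13 tRNA charging genes were higher and 1, IARS1, lower. The genes lower in SIRT1 KD than in IGF2BP2 KD also included DDIT4 (-0.59), STC2 (-0.98), PHGDH (-0.92), PSPH (-0.49), SLC7A5 (-0.45) and PSAT1 (-0.24), the last lost without any of 7 libraries (control replicates 1 and 2, the 3 SIRT1 KD libraries and IGF2BP2 KD replicates 1 and 3, adjusted p up to 0.172).

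Whether the effects of the hairpins add up on the log2 scale was tested by the interaction: the change from adding the IGF2BP2 hairpin to SIRT1 KD cells, minus the change from the same hairpin in control cells. CEBPG (0.42, adjusted p = 0.0298), MARS1 (0.47, adjusted p = 0.0379) and IARS1 (0.36, adjusted p = 0.0288) were called higher and DDIT4 (-0.58, adjusted p = 0.0263) lower, 3 and 1 of 38, against 1.7% higher and 1.16% lower of all tested genes. Without double KD replicate 2, 10 were called higher and 3 lower (5.86% and 3.88%). The 4 calls were lost in 10 (CEBPG), 9 (MARS1), 7 (IARS1) and 8 (DDIT4) of the 12 fits without 1 library, those of CEBPG and DDIT4 also with no filter on low counts (adjusted p = 0.0799 and 0.0819), and that of MARS1 also with a replicate block (adjusted p = 0.0519). For CEBPG and DDIT4 the double KD value lay above and below the sum of the single changes: CEBPG in double KD stood at -0.77 against -0.36 and -0.83 in the single knockdowns, and DDIT4 at -0.93 against -0.47 and 0.12.

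The calls were also counted by the promoter element described above. Of the 14 genes with it, 8 fell in SIRT1 KD, 13 in IGF2BP2 KD and 13 in double KD. Of the 18 with a promoter entry and no match, 11, 10 and 15 fell. The shares of all tested genes that fell were 15.7%, 9.39% and 17.5%. The median log2 fold changes with and without the element were -0.19 and -0.27 in SIRT1 KD, -0.40 and -0.35 in IGF2BP2 KD, and -0.45 and -0.48 in double KD. The genes were not tested as groups.

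A second sequence feature was counted beside the SIRT1 KD calls. The 7-mers CTCAGAT and TCAGATA had been picked earlier on these same libraries as sequences of 3′ UTRs whose genes were lower in SIRT1 KD, so their share among called genes is a description. Of all tested genes with a GENCODE 29 3′ UTR, 17.0% held either one, and 39.9% of those fell in SIRT1 KD, against 14.8% of those with neither. Of the 38 genes, 4 held one (ATF3, EPRS1, VLDLR and IARS1) and 3 of these fell in SIRT1 KD, while 19 of the 34 with neither fell and 3 rose. IARS1 and EPRS1 hold the 2 joined, shown in capitals in the GRCh38 windows of the 3′ UTR on the gene strand.
IARS1, chr9:92210334-92210361, minus strand: aataaacaaaCTCAGATAtaaatgtgtt
EPRS1, chr1:219968725-219968752, minus strand: ttagtatcttCTCAGATAcagaccgttt
The part of these 7-mers in any result was not tested.

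Of 17 genes upstream in the pathway, for eIF2 kinases, eIF2 and its exchange factor eIF2B, 5 fell (29.4%) and 2 rose (11.8%) in SIRT1 KD, 3 fell (17.6%) and 0 rose in IGF2BP2 KD, and 5 fell (29.4%) and 3 rose (17.6%) in double KD. Over all tested genes, 15.7%, 9.39% and 17.5% fell and 12.9%, 6.86% and 16.7% rose in SIRT1 KD, IGF2BP2 KD and double KD, so the rises were near the background in SIRT1 KD and double KD. The medians were -0.10, -0.03 and -0.13, the last -0.05 without double KD replicate 2. EIF2AK4, which encodes GCN2, rose in SIRT1 KD (0.31, adjusted p = 0.000694) and double KD (0.34, adjusted p = 0.000231) and differed by -0.00 (adjusted p = 0.997) in IGF2BP2 KD. EIF2AK1, the heme-regulated kinase, fell in SIRT1 KD (-0.40) and double KD (-0.26), and EIF2AK2, the kinase activated by double-stranded RNA, fell in SIRT1 KD (-0.34). EIF2S1, the phosphorylated subunit of eIF2, rose in double KD (0.33).

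Of 23 further genes linked to ATF4, 20 were tested. Of these, 9 fell and 4 rose in SIRT1 KD, 11 fell and 2 rose in IGF2BP2 KD, and 13 fell and 2 rose in double KD. The medians were -0.29, -0.24 and -0.63. The shares of the 20 were 45%, 55% and 65% lower and 20%, 10% and 10% higher. All tested genes had 15.7%, 9.39% and 17.5% lower and 12.9%, 6.86% and 16.7% higher. GDF15, a secreted stress hormone, had 593, 469 and 496 normalised counts in SIRT1 KD libraries, 245, 279 and 285 in IGF2BP2 KD, 189, 236 and 196 in double KD and 667, 603 and 624 in control. VEGFA, an angiogenic growth factor, had 5239.9, 5038 and 5076 normalised counts in SIRT1 KD libraries, 3426, 4127 and 3633 in IGF2BP2 KD, 2977, 3269 and 2782 in double KD and 6896, 6746 and 6786 in control. Both were lowest in double KD, and every knockdown library lay below control. GDF15 changed by -0.29 (adjusted p = 0.0521), -1.23 (adjusted p = 3.26e-07) and -1.61 (adjusted p = 2.21e-09), and VEGFA by -0.41 (adjusted p = 0.000297), -0.87 (adjusted p = 2e-07) and -1.18 (adjusted p = 8.33e-10). SLC7A11, the cystine importer, changed by -0.45, -0.58 and -1.05, and JDP2, a bZIP repressor, by -1.09, -0.89 and -1.56, all called.

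Of 18 other amino acid and one-carbon enzymes, 16 were tested. Of these, 4 fell and 4 rose in SIRT1 KD, 4 fell and 1 rose in IGF2BP2 KD, and 3 fell and 4 rose in double KD. Their shares were 25%, 25% and 18.8% lower and 25%, 6.25% and 25% higher. All tested genes had 15.7%, 9.39% and 17.5% lower and 12.9%, 6.86% and 16.7% higher. The falls in double KD and the rises in IGF2BP2 KD were thus near the background. The medians over the 16 were -0.11, -0.11 and 0.0021. BCAT1, the cytosolic branched-chain transaminase, changed by -1.56 (adjusted p = 1.83e-10), -0.11 (adjusted p = 0.388) and -1.36 (adjusted p = 2.81e-10). ASS1, which makes argininosuccinate, changed by -0.17 (adjusted p = 0.208), -0.86 (adjusted p = 5.12e-06) and -1.16 (adjusted p = 2.9e-08).

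Levels per kilobase of annotated exon differed widely within the list. In control, DDIT4 had the highest mean, 4272 normalised counts per kilobase, followed by SLC7A5 (3084) and GARS1 (1994), and ASNS (33.4), PHGDH (8.33) and STC2 (6.27) had the lowest. ATF4 stood at 1719.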

How the data were processed

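The authors deposited, under named columns, a normalised signal per gene: read counts divided by a size factor for each library. They also deposited log2 ratios to control, computed by the authors, which served only to check the column codes. The code for SIRT1 KD was read by elimination; over 9904 genes each column matched its namesake with an SD of at most 0.00118, against at least 0.0902 for any other. Per the submitters' processing notes, the tools were CASAVA, STAR and DESeq2 and the build GRCh38.p13. Whole reads were recovered for 100% of values within 0.001 reads, and 12 unnamed count columns were not used. Of 60649 IDs, 60463 matched a symbol.

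Genes kept by edgeR 4.0.16 filterByExpr (minimum count 10) numbered 17576. limma 3.58.1 in R 4.3.3 (trend and robust) was fitted on log2(value + 1), which understates changes of low genes. The fit used all 12 libraries, with 1 mean per group and no replicate block. It was checked on simulated data that gave every library the same spread. That check does not cover a deviating library such as double KD replicate 2. Benjamini-Hochberg adjustment ran over all genes in each of 7 comparisons. Alternatives were edgeR's quasi-likelihood test and DESeq2 1.42.0 on recovered reads, TMM scaling, pseudocounts of 0.5 and 5, other filters, only the groups compared, a replicate block, and leaving out each library. The genes and lists were chosen with earlier results of these data known. Values in every library are given for ATF4 and, per role, the 4 genes with the smallest adjusted p against control. Up to 4 genes of each other list are named by the same rule; SESN2, and which of these other genes are shown by library, were chosen after values were seen. Some genes that this rule names are not reported here. No libraries of a group agreed within sampling noise. Sequence searches used RefSeq promoters and GENCODE 29 3′ UTRs. The promoter search was first run on only the first promoter listed for each gene, and then on every listed promoter. Both runs came after the expression values had been seen.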

Additional observations from a re-analysis of the deposited data

Results flagged for a closer look

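For 4 of the 38 genes the limma interaction was called, meaning that the IGF2BP2 hairpin changed the gene by a different amount in SIRT1 KD cells than in control cells. CEBPG had an interaction of 0.42, MARS1 of 0.47 and IARS1 of 0.36 on the log2 scale, each with the double KD above the sum of the single changes. DDIT4 had -0.58, with the double KD below that sum. The calls were lost in 10, 9, 7 and 8 of the 12 fits without 1 library for CEBPG, MARS1, IARS1 and DDIT4, with adjusted p-values from limma of up to 0.109, 0.117, 0.0961 and 0.0867. MARS1 also shares annotated bases with DDIT3 on the opposite strand.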

How the results depend on the processing

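Of 144 calls for single genes, 113 held in every alternative that tested the gene and none changed sign; 30 were lost in at least 1 fit without a library and 18 under another setting, where a lost call can also come from fewer samples or genes in the fit. The numbers higher in IGF2BP2 KD than in control were 2 with only the groups compared and 0 to 1 across fits without 1 library, 0 coming without control replicate 1 or 3. Between double KD and SIRT1 KD, the number higher was 1 with edgeR, 0 with only the groups compared and 1 to 2 across fits without 1 library. Between double KD and IGF2BP2 KD, leaving out libraries gave 4 to 8 higher, 8 without double KD replicate 1, and 7 to 16 lower, 16 without double KD replicate 2. Interaction calls were the least stable: DESeq2 gave 7 higher and leaving out libraries 0 to 10, while those lower were 2 with a mean of at least 100, TMM normalisation, edgeR or DESeq2, and 0 to 3 without 1 library. The cause of these shifts was not tested. Calls that were not made with all libraries were followed gene by gene only in the fit without double KD replicate 2, which made 11 more against control.

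Same-numbered libraries had correlations of their deviations between -0.215 and 0.138 (median 0.032). Differently numbered libraries had correlations between -0.221 and 0.257 (median -0.021). The numbers thus gave no sign of pairing. Deviations of 3 libraries from their group mean depend on one another, so this check cannot exclude pairing. With the replicate block, 21 genes fell and 3 rose in SIRT1 KD against control, 27 and 1 in IGF2BP2 KD, and 31 and 1 in double KD. Between double KD and SIRT1 KD 17 fell and 2 rose, between double KD and IGF2BP2 KD 8 fell and 6 rose, and SIRT1 KD minus IGF2BP2 KD gave 17 higher and 7 lower. The interaction gave 3 higher and 1 lower under the block, and AARS1 in SIRT1 KD (limma adjusted p = 0.0503) and MARS1 in the interaction (limma adjusted p = 0.0519) lost their calls. STC2, PHGDH and ASNS rest on fewer reads than the other genes, which limits the precision of their fold changes.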
